A study of Homo sapiens with 6 samples.

Results

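The 10 genes described here belong to the NOTCH pathway. They are the receptors NOTCH1, NOTCH2 and NOTCH3, the ligands JAG1 and JAG2, and the target genes HES1, HES4, HEY1, HEYL and NRARP, and each was found by its symbol in the deposited table of 25545 genes. They were measured in BT-549 cells, a long-established line of triple-negative breast cancer (TNBC). RNA-seq was done on 3 BT-549/CsiRNA libraries, from cells given a control siRNA, and on 3 BT-549/NEAT1siRNA libraries, from cells given an siRNA against NEAT1, the long noncoding RNA that scaffolds nuclear paraspeckles. RNA was isolated 48 h after transfection, so both groups carry a transfected siRNA and differ in its target. The labels write the groups as BT-549/tet-NEAT1CsiRNA and BT-549/tet-NEAT1siRNA and do not say what the prefix tet stands for. The model is a single cell line in culture with medium that contains serum and insulin, and silencing was transient.

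NOTCH receptors are cell-surface proteins that are activated by ligands of the Delta and Jagged families on a neighbouring cell. Ligand pulling exposes the receptor to cleavage by an ADAM protease and then by γ-secretase, which frees the intracellular domain to enter the nucleus and join the DNA-binding protein RBPJ and a MAML coactivator. This complex switches on the HES and HEY genes, which encode repressors of transcription, and NRARP, which encodes an ankyrin repeat protein that limits the pathway. In mammary tissue the pathway is known for its part in cell fate and in the self-renewal of progenitor cells.

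Expression is given in TPM, which are reads scaled by transcript length and by library, so levels of different genes can be set side by side. The change of a gene is the log2 fold change of TPM + 1, NEAT1siRNA minus CsiRNA, with the standard error (SE) from limma, and an adjusted p under 0.05 over all genes tested was taken as the threshold. Because 1 was added to every TPM, this scale understates the change of genes with a low TPM. A second estimate, voom, came from whole reads recovered for each library, with its own scaling between libraries, and does not add 1 to the TPM. NEAT1 itself had 13.4, 7.68 and 10.8 TPM in CsiRNA replicates 1 to 3 and 4.36, 2.96 and 2.73 TPM in the NEAT1siRNA libraries. All 3 silenced libraries were below all 3 controls, at a mean of 31.5% of the control level (log2 fold change -1.41, SE 0.14, adjusted p = 1.21e-07).

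Between 15786708 and 20341382 reads were recovered per library, and 4 short RNAs held 64.4% to 68.1% of each library's TPM. All 6 mesenchymal markers of BT-549 cells were at 1 TPM or more in every library, led by VIM at 859 to 1112 TPM. All 6 luminal or epithelial markers and all 4 endothelial markers were under 1 TPM, with ESR1, CDH5 and VWF at 0. Of the leukocyte markers, CD3E was at 0, while the lysosomal protein gene CD68 had 23.2 to 29.2 TPM. Deviations of genes from their group mean followed GC content differently in each library, with a Spearman's rho across 10106 genes from -0.73 in NEAT1siRNA replicate 2 to 0.68 in NEAT1siRNA replicate 1. Each comparison was refitted after a trend on GC content and length had been removed. For the receptor, ligand and target genes named above, the refitted value is given where it changed a call or moved a value by over 1.5 times. Among the other genes it is given only for SPEN. For the other pathway genes this refit changed 6 calls (3 higher, 3 lower) to 17 (11 higher, 6 lower). Over all 10106 genes with a known GC content, the same refit called 1678 higher and 1742 lower. Some pathway genes reported below as not passing therefore passed once the trend was removed.

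RBPJ binds DNA at the core letters TGGGAA, so the bases before the RefSeq start of each gene (GRCh38.p14) were read to show which members carry them. The NOTCH2 window (chr1:120069663-120069912) lies inside the gene bounds given below, and the JAG2 window overlaps those of JAG2. For these genes the window is therefore not before the start of the printed bounds. Windows of 250 bases on 9 of the 10 members were searched on both strands for the RBPJ core TGGGAA, for the longer GTGGGAA that contains it, for the class C letters CACGCG, to which HES proteins are known to bind, and for TATAAA. The RBPJ core was in the windows of HES1, HES4 and HEYL, the class C letters were in those of HES1 and JAG2, and TATAAA was in that of NRARP. Of 27305 promoters, 21.1% held the core, 5.46% the longer form, 9.62% the class C letters and 11.1% TATAAA, so the core is common and a match is a description, not a binding site. The windows of the 3 genes with an RBPJ core, and of NRARP and JAG1, whose expression differed most between the groups, are printed 5′ to 3′ on the strand of the gene, with matches in capitals.
HES1 promoter, chr3:194135898-194136147, plus strand: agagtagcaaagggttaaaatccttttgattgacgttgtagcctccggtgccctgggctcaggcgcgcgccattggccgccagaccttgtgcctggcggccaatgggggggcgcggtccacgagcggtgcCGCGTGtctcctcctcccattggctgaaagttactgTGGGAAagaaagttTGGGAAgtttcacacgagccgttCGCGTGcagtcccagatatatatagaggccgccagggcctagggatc
HES4 promoter, chr1:1000098-1000347, minus strand: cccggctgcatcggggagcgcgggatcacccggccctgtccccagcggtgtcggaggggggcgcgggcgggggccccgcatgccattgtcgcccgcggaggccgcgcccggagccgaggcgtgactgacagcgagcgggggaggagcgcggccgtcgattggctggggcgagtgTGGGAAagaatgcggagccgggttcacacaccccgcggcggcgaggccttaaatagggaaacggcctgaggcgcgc
HEYL promoter, chr1:39639644-39639893, minus strand: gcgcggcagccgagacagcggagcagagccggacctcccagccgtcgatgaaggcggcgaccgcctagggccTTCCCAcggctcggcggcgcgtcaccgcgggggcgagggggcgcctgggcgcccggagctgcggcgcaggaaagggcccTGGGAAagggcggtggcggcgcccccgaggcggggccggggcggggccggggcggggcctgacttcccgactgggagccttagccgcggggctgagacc
NRARP promoter, chr9:137302272-137302521, minus strand: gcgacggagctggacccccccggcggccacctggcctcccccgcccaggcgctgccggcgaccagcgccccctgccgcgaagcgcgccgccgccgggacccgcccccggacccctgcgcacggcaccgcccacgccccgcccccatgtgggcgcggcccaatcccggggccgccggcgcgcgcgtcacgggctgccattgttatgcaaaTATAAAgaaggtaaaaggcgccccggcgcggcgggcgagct
JAG1 promoter, chr20:10674000-10674249, minus strand: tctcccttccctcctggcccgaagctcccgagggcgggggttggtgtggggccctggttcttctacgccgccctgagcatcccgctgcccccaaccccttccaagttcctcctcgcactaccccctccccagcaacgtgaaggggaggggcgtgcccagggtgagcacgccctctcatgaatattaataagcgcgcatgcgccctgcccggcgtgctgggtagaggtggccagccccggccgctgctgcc
The capitals mark the RBPJ core, on either strand, in HES1, HES4 and HEYL, the class C letters read from the other strand as CGCGTG in HES1, and TATAAA in NRARP. In HES1 the 2 cores began 84 and 70 bases before the start, both in the same orientation, and lay between the class C matches at 120 and 47 bases. HES4 had 1 core at 76 bases, and HEYL had cores at 178 and 99 bases in opposite orientations. The TATAAA of NRARP began 41 bases before the start. The JAG1 window held none of these letters, which says only that they are not in these 250 bases.

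**Figure D1:**
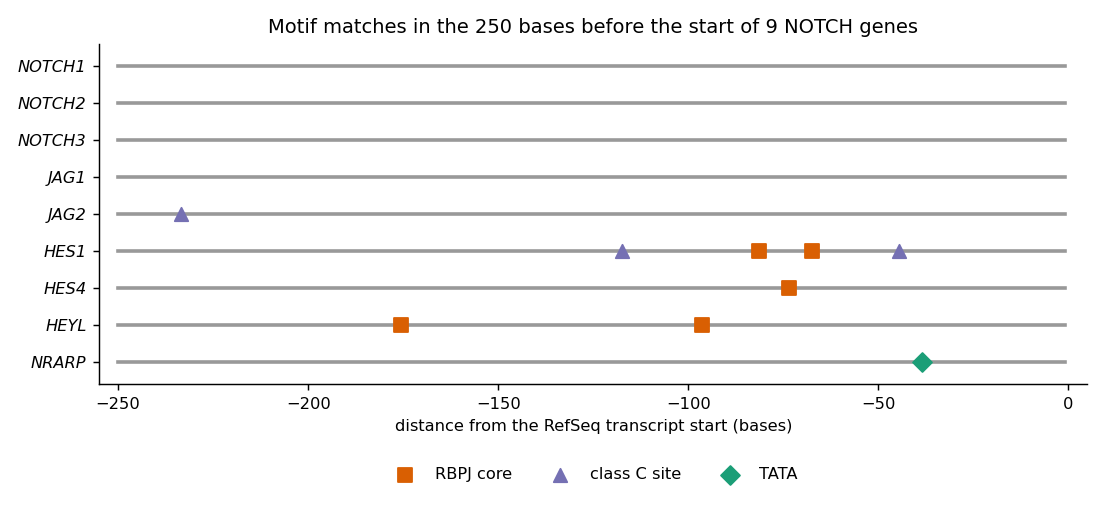
Position of motif matches, in bases from the RefSeq transcript start, in the 250 bases before 9 of the genes; each line is a promoter window and each symbol a match. The HES1 window holds 4 of the matches plotted, and the windows of NOTCH1, NOTCH2, NOTCH3 and JAG1 hold none.

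Across the control libraries the genes covered a wide range of levels. NOTCH2 was highest at a mean of 30.5 TPM, followed by NOTCH3, HES1, HES4, NOTCH1, NRARP, JAG1, HEY1, JAG2 and HEYL. NOTCH3 and HES1 overlapped in their CsiRNA values, as did JAG1 and HEY1, and every other pair of neighbours in that order was separated in all 3 control libraries. With NEAT1siRNA, HES1 and HES4 overlapped and JAG1 and HEY1 no longer did, and every JAG1 value was above every NRARP value, the reverse of their order with CsiRNA. The ligand genes were each under 1 TPM on average with CsiRNA.

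**Figure D2:**
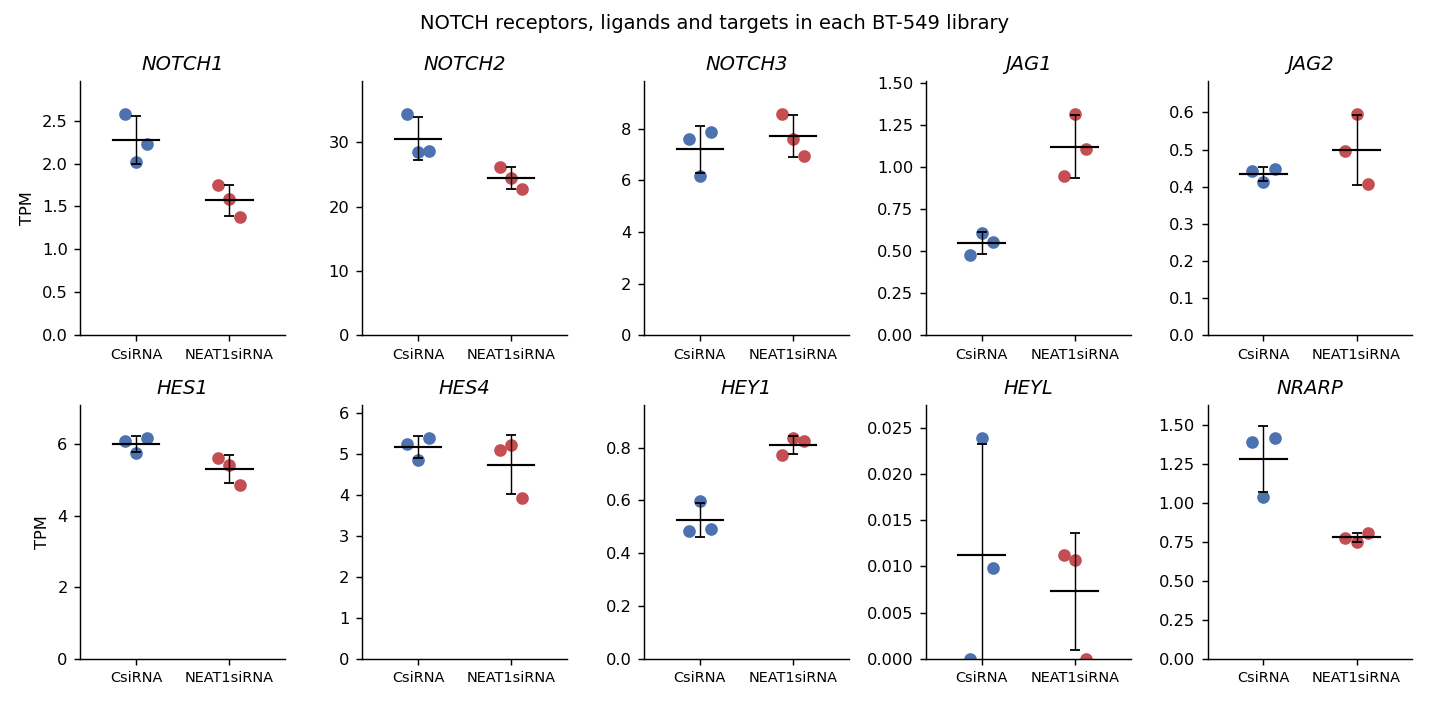
TPM of each of the 10 genes in every library, with a separate vertical axis per gene that starts at 0; points are libraries, wide lines are means and bars are SD (n = 3). The NEAT1siRNA points lie below all CsiRNA points for NOTCH1, NOTCH2, HES1 and NRARP and above them for JAG1 and HEY1.

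After NEAT1 silencing, the receptor genes NOTCH1 and NOTCH2 and the target gene NRARP were lower, the ligand gene JAG1 was 2.05-fold higher, and HEY1 was higher in every library without passing the test. When genes were kept at an average of 1 TPM or more over all libraries, 6 of the 10 genes were tested. Of these, 3 fell (NOTCH1, NOTCH2 and NRARP) and 0 rose, where 8.98% of all 10721 genes tested fell and 4.99% rose. The median log2 fold change was -0.23 for the 6 genes and -0.04 for all genes. NRARP, with a mean of 1.03 TPM, passed this filter only through its CsiRNA level, so a lower silenced level was built into its passing, and the count and median are given as a description. With a filter at 0.1 TPM, 9 genes were tested. NOTCH1 and NRARP fell (background 5.08%) and JAG1 rose (background 3.39%), with a median of -0.11 against -0.03 for all 13727 genes. By voom over the same genes, NOTCH1, NOTCH2 and NRARP fell (background 10.0%) and JAG1 and HEY1 rose (background 9.76%). All NEAT1siRNA values were below all CsiRNA values for 4 of the 9 genes, as for 17.3% of all genes, and above them for 2, as for 11.4% of all genes. In bulk RNA, fewer cells that express a gene and less RNA per cell cannot be told apart, and the p-values measure the spread between these cultures, which may be technical.

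**Figure D3:**
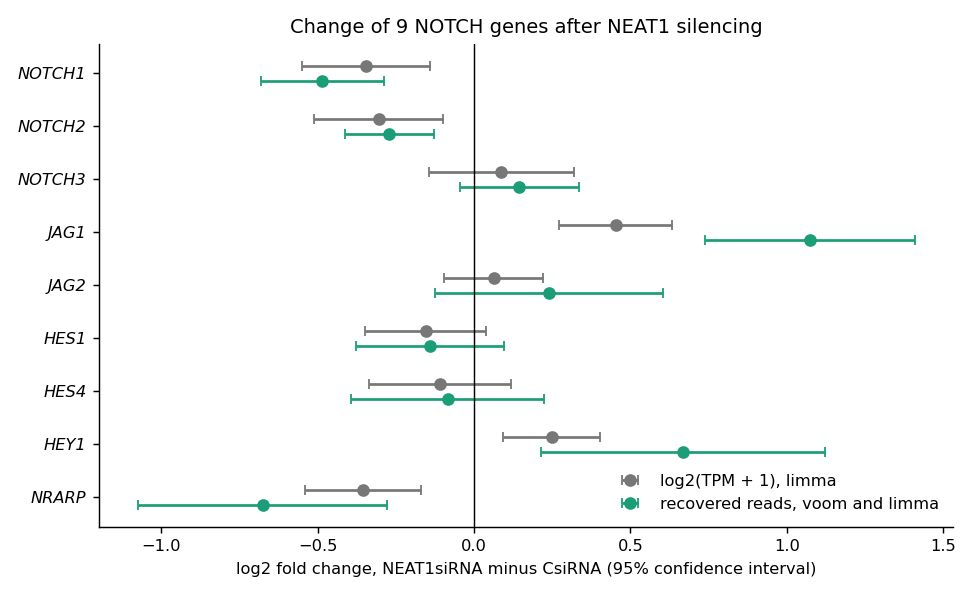
Log2 fold change, NEAT1siRNA minus CsiRNA, of the 9 genes with a mean of at least 0.1 TPM, from log2(TPM + 1) with limma (grey) and from recovered reads with voom (green); bars are 95% confidence intervals. NOTCH1, NOTCH2 and NRARP lie below 0 and JAG1 and HEY1 above 0 with both, and the voom values of JAG1, HEY1 and NRARP are farther from 0.

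Among the receptors, NOTCH2 (chr1:119911553-120100779, minus strand), the most abundant NOTCH transcript in these cells, had 34.4, 28.5 and 28.7 TPM with CsiRNA and 26.1, 24.5 and 22.7 TPM with NEAT1siRNA. The lowest control was above the highest silenced library, and the mean went from 30.5 ± 3.33 to 24.4 ± 1.69 TPM (SD, n = 3), or 80.1% of the control. The log2 fold change was -0.31 (SE 0.10, adjusted p = 0.0349), and by voom, on 5698 to 8798 reads per library, it was -0.27 (SE 0.07, adjusted p = 0.00882). The call was lost with the filter at 0.1 TPM (adjusted p = 0.0660), without CsiRNA replicate 1 (0.240) and without NEAT1siRNA replicate 3 (0.176). After the trend on GC content and length was removed the value was smaller, at -0.15, and the call was kept (adjusted p = 0.0135, and 0.0120 with the filter at 0.1 TPM). NOTCH2NL, a partial copy of NOTCH2 whose reads can be confused with it, had 1.01 ± 0.133 TPM with CsiRNA and 0.924 ± 0.0622 TPM with NEAT1siRNA (SD, n = 3), so the level of NOTCH2 is uncertain to the extent that reads were shared.

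NOTCH1 (chr9:136494433-136546048, minus strand), a receptor studied in stem and progenitor cells, had 2.58, 2.02 and 2.23 TPM with CsiRNA. It had 1.75, 1.59 and 1.38 TPM with NEAT1siRNA, again with no overlap between the groups. The mean went from 2.27 ± 0.281 to 1.57 ± 0.183 TPM (SD, n = 3), or 69.2% of the control. NOTCH1 fell with a log2 fold change of -0.35 (SE 0.10, adjusted p = 0.0224), and with -0.49 (SE 0.09, adjusted p = 0.00141) by voom on 271 to 534 reads. As for NOTCH2, CsiRNA replicate 1 was the highest control and NEAT1siRNA replicate 3 the lowest silenced library, and the call was lost when either was left out (adjusted p = 0.128 and 0.123).

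NOTCH3 (chr19:15159038-15200995, minus strand), a receptor best known from vascular smooth muscle, had no clear difference between the groups. It had 7.60, 6.16 and 7.87 TPM with CsiRNA and 8.57, 7.60 and 6.95 TPM with NEAT1siRNA, and the groups overlapped. The log2 fold change was 0.09 (adjusted p = 0.633), with a 95% confidence interval from -0.12 to 0.30. It turned to -0.0082 without CsiRNA replicate 2, the lowest control, and passed the threshold at 0.15 (adjusted p = 0.0433) after the trend on GC content and length was removed, though not when the same was done with the filter at 0.1 TPM (adjusted p = 0.102). NOTCH4 was close to absent, at a mean of 0.00463 TPM. The summed TPM of the 4 receptor genes was 40.0 ± 4.06 with CsiRNA and 33.7 ± 2.68 with NEAT1siRNA (SD, n = 3). Of that sum, NOTCH3 held 16.8% to 20.3% in the control libraries and 22.4% to 23.5% in the silenced libraries, without overlap, and NOTCH2 held a mean of 76.3% and 72.5%.

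JAG1 (chr20:10637684-10673999, minus strand), which encodes the Jagged ligand most often studied in breast cancer, had the largest change of the 9 genes compared. It had 0.480, 0.610 and 0.554 TPM with CsiRNA and 0.945, 1.32 and 1.11 TPM with NEAT1siRNA. Every silenced library was well above every control, and the mean went from 0.548 ± 0.0654 to 1.12 ± 0.186 TPM (SD, n = 3), a 2.05-fold difference. With a mean of 0.835 TPM it was under the filter at 1 TPM. With the filter at 0.1 TPM JAG1 rose with a log2 fold change of 0.45 on the log2(TPM + 1) scale (SE 0.08, adjusted p = 0.00655), and by voom, on 59 to 84 reads against 125 to 184, with 1.07 (SE 0.16, adjusted p = 0.000152). It was past the threshold in all 15 fits made with that filter or with none, with adjusted p-values up to 0.0405.

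JAG2 (chr14:105140982-105168824, minus strand), the other Jagged ligand, had 0.443, 0.413 and 0.447 TPM with CsiRNA and 0.497, 0.595 and 0.406 TPM with NEAT1siRNA. The groups overlapped, with the lowest of all 6 values in NEAT1siRNA replicate 3. The log2 fold change was 0.06 (adjusted p = 0.647), and the 95% confidence interval by voom, from -0.12 to 0.60, does not exclude a rise of moderate size. JAG1 and JAG2 differed by a factor of 1.08 to 1.48 within each control library and by 1.90 to 2.72 within each silenced library. Over the 5 ligand genes of the Jagged and Delta families, JAG1, JAG2, DLL1, DLL3 and DLL4, the summed TPM was 2.34 ± 0.104 with CsiRNA and 2.67 ± 0.266 with NEAT1siRNA (SD, n = 3). JAG1 held 19.9% to 25.5% of this sum in the control libraries and 36.9% to 44.6% in the silenced libraries. DLL3, a ligand that acts mainly inside the cell as an inhibitor of the pathway, held 46.7% to 49.3% and 28.1% to 37.8%. Its level went from 1.13 ± 0.0784 to 0.865 ± 0.091 TPM (SD, n = 3) and was lower in every silenced library, without passing the test (adjusted p = 0.145).

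Of the target genes, NRARP (chr9:137299631-137302271, minus strand), the feedback inhibitor, had 1.39, 1.04 and 1.42 TPM with CsiRNA and 0.775, 0.752 and 0.809 TPM with NEAT1siRNA. The silenced libraries were tightly grouped below the lowest control, and the mean went from 1.28 ± 0.211 to 0.779 ± 0.0287 TPM (SD, n = 3), or 60.7% of the control. NRARP fell with a log2 fold change of -0.36 (SE 0.10, adjusted p = 0.0190, and 0.0230 with the filter at 0.1 TPM, which it passed in both groups). By voom, on 41 to 88 reads per library, the value was -0.68 (SE 0.19, adjusted p = 0.0180). The call was lost without CsiRNA replicate 1 (adjusted p = 0.0884), CsiRNA replicate 3 (0.0784) or NEAT1siRNA replicate 3 (0.0509).

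HES1 (chr3:194136148-194138732, plus strand), the bHLH repressor that is the most widely used readout of the pathway, had 6.08, 5.77 and 6.18 TPM with CsiRNA and 5.62, 5.42 and 4.87 TPM with NEAT1siRNA. The silenced values lay just below the controls, at 88.2% of the control mean, and the difference did not pass the test (log2 fold change -0.16, adjusted p = 0.301, 95% confidence interval from -0.35 to 0.038, and -0.10 after the trend on GC content and length was removed). HES4 (chr1:998962-1000172, minus strand), a bHLH gene of the same family, had 5.23, 4.86 and 5.39 TPM with CsiRNA and 5.09, 5.21 and 3.92 TPM with NEAT1siRNA. The groups overlapped, with NEAT1siRNA replicate 3 alone under every other library, and the log2 fold change was -0.11 (adjusted p = 0.534, 95% confidence interval from -0.32 to 0.10, and -0.17 with that trend removed, at an adjusted p of 0.0784). Both genes carry the RBPJ core in the windows printed above, and neither passed the threshold in any fit.

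HEY1, on the minus strand of chromosome 8, encodes a bHLH repressor of the HES-related family. It had 0.486, 0.599 and 0.492 TPM with CsiRNA and 0.771, 0.837 and 0.824 TPM with NEAT1siRNA. Every silenced library was above every control, and the mean went from 0.526 ± 0.0638 to 0.811 ± 0.0348 TPM (SD, n = 3), or 154% of the control. On 24 to 47 reads per library, the log2 fold change was 0.25 (SE 0.07, adjusted p = 0.0518), which misses the threshold, while voom gave 0.67 (SE 0.22, adjusted p = 0.0374) and the fit with the trend on GC content and length removed gave 0.30 (adjusted p = 0.0123). HEY1 was past the threshold in 6 of 15 fits and higher with NEAT1siRNA in all of them. HEYL (chr1:39623435-39639643, minus strand), the related gene with 2 RBPJ cores in its window, had 5 reads in all 6 libraries together and at most 0.0239 TPM. It was tested only in the fit with no filter (log2 fold change -0.0056, adjusted p = 0.869), and so few reads allow no comparison of the groups.

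**Figure D4:**
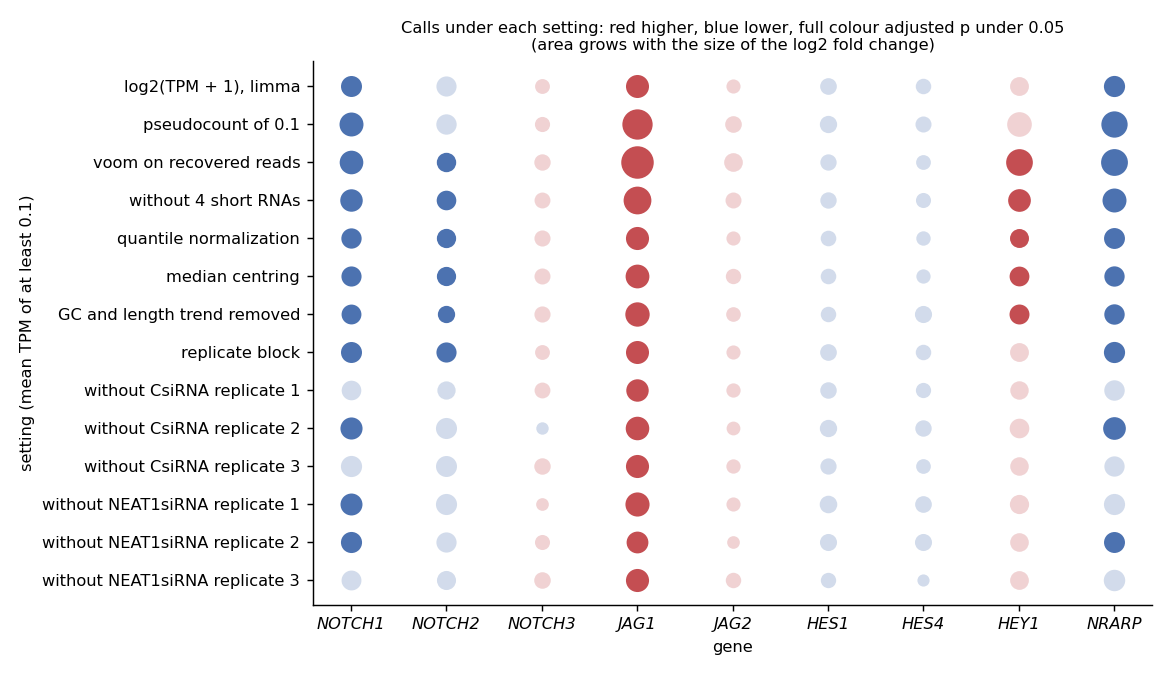
Calls for 9 genes (columns) under 14 settings (rows), with genes of a mean TPM of at least 0.1; red is higher and blue lower with NEAT1siRNA, full colour marks an adjusted p under 0.05, and the area grows with the size of the log2 fold change. JAG1 is in full colour in every row, NOTCH1, NOTCH2, NRARP and HEY1 in some, and NOTCH3, JAG2, HES1 and HES4 in none.

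Genes within 5 kb of these were read as well. ISG15, an interferon-stimulated gene that starts 966 bases from HES4 on the other strand, had 31.3 ± 2.41 TPM with CsiRNA and 34.7 ± 3.41 TPM with NEAT1siRNA (SD, n = 3) and did not pass the test (adjusted p = 0.356). SLX4IP, 855 bases from JAG1 on the other strand, had 3.19 ± 0.342 and 3.73 ± 0.456 TPM (SD, n = 3), without passing the test (adjusted p = 0.274). NUDT14, 4114 bases from JAG2, was higher in every silenced library, at 1.32 ± 0.150 against 1.84 ± 0.335 TPM (SD, n = 3), also without passing it (adjusted p = 0.0698). Annotated antisense noncoding RNAs overlap NOTCH1, NOTCH2, JAG1, HEYL and NRARP. They were not found in the table under their current annotation names, and other names were not looked for. Whether strand was used in counting is not given in the sources used here.

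The other genes of the pathway were read from lists that hold 72 genes in 8 groups, of which 51 passed the filter at 1 TPM. Of these, 3 fell (POFUT1, PSEN2 and SPEN), 3 rose (RBPJ, DTX3L and BHLHE40) and 45 did not pass the test, with a median log2 fold change of -0.06, beside -0.04 over all genes. The background over all genes was 8.98% lower and 4.99% higher, so these counts are near it. With voom and the filter at 0.1 TPM, 4 of 58 fell and 11 rose. There, 10.0% of all genes fell and 9.76% rose, so the count that rose was above the background. The same held at 1 TPM with quantile normalization, where 10 of the 51 rose, against 1082 of all 10721 genes. It also held with median centring (11 against 1158) and without the 4 short RNAs (9 against 918). Without CsiRNA replicate 1 or without NEAT1siRNA replicate 3, 2 rose and 0 fell, where 376 and 413 of all genes rose and 383 and 425 fell.

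Of the genes that modify and cut the receptors, 1 of 5 and 1 of 8 tested fell, where 8.98% of all genes tested did. With groups this small, 1 call each is not set apart from that share. POFUT1, which adds the O-fucose that receptors need for ligand binding, went from 39.8 ± 2.04 to 30.6 ± 2.01 TPM (SD, n = 3), which is -0.37 on the log2 scale (SE 0.09, adjusted p = 0.00754). It was the only gene to pass among 5 tested for glycosylation and maturation, where TMED2 was the most abundant at 227 TPM and did not pass (adjusted p = 0.408). PSEN2, a catalytic subunit of γ-secretase, went from 4.88 ± 0.571 to 3.69 ± 0.341 TPM (SD, n = 3), with -0.32 (adjusted p = 0.0306). It was the only gene to pass of 8 for receptor cleavage, whose most abundant member NCSTN, another γ-secretase subunit, went from 59.2 ± 1.99 to 53.4 ± 0.94 TPM (SD, n = 3) without passing (adjusted p = 0.294). Without CsiRNA replicate 1 and without NEAT1siRNA replicate 3, POFUT1 had an adjusted p of 0.0608 and 0.0664, and PSEN2 of 0.173 and 0.166. PSEN2 also lost its call with the filter at 0.1 TPM (adjusted p = 0.0663) and with no filter (0.157).

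In the nuclear complex, RBPJ, the DNA-binding partner of all NOTCH receptors, had 19.9, 18.0 and 16.8 TPM with CsiRNA and 21.7, 28.7 and 23.0 TPM with NEAT1siRNA. It rose with a log2 fold change of 0.40 (SE 0.10, adjusted p = 0.0101) and kept its call in every fit but that with no filter on TPM (adjusted p = 0.131). It was the only gene to pass of 8 tested in its group. By voom, RBPJ rose and MAML1 fell among the same 8 genes (background 9.76% higher and 10.0% lower). SNW1, a cofactor of RBPJ and the most abundant of them, had 26.3 ± 0.567 and 24.2 ± 0.436 TPM (SD, n = 3; adjusted p = 0.441).

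SPEN, the corepressor that ties RBPJ to histone deacetylase complexes, went the other way, from 14.6 ± 1.72 to 10.8 ± 1.32 TPM (SD, n = 3), with -0.40 (SE 0.10, adjusted p = 0.00977). The adjusted p for SPEN was 0.0899 without CsiRNA replicate 1 and 0.0828 without NEAT1siRNA replicate 3, and it was 0.125 when low genes were not filtered out. After the trend on GC content and length was removed its value was -0.24 (adjusted p = 0.00470). The other 13 corepressors tested did not pass, among them TLE5, listed under its older symbol AES, which was the most abundant at 66.7 ± 2.71 and 77.4 ± 5.77 TPM (SD, n = 3; adjusted p = 0.119). By voom, 6 of the 15 corepressors rose, TLE5 among them, and SPEN alone fell (background 9.76% higher and 10.0% lower). The count for this group, and the call of TLE5, therefore depend on the estimate.

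DTX3L, a ubiquitin ligase of the Deltex family, went from 30.3 ± 2.23 to 37.1 ± 2.11 TPM (SD, n = 3) and rose with 0.28 (adjusted p = 0.0401), the only call among 11 genes for ubiquitination and trafficking. That call was lost in 5 of the 6 fits that left out a library, with adjusted p-values from 0.0608 to 0.144 in those, and also with the filter at 0.1 TPM (0.0597) and with no filter (0.102). By voom, MIB1 and NEURL1B passed as well, so 3 of the 11 genes rose and 0 fell (background 9.76% higher and 10.0% lower). BHLHE40, a bHLH repressor related to the HES genes, rose from 11.4 ± 0.249 to 15.6 ± 0.640 TPM (SD, n = 3), with 0.41 (SE 0.09, adjusted p = 0.00275), and kept its call in all 18 other fits. The remaining family members were low. HES7 had 2.20 ± 0.248 and 1.64 ± 0.243 TPM (SD, n = 3; adjusted p = 0.0669), HES6 and BHLHE41 had means under 1 TPM, and HES3, HES5 and HELT were listed at 0 in every library. Among the 3 ligand genes outside the Jagged pair that were tested, MFAP2, a microfibril protein known to interact with JAG1, was the most abundant at 29.0 TPM and did not pass (adjusted p = 0.251).

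**Figure D5:**
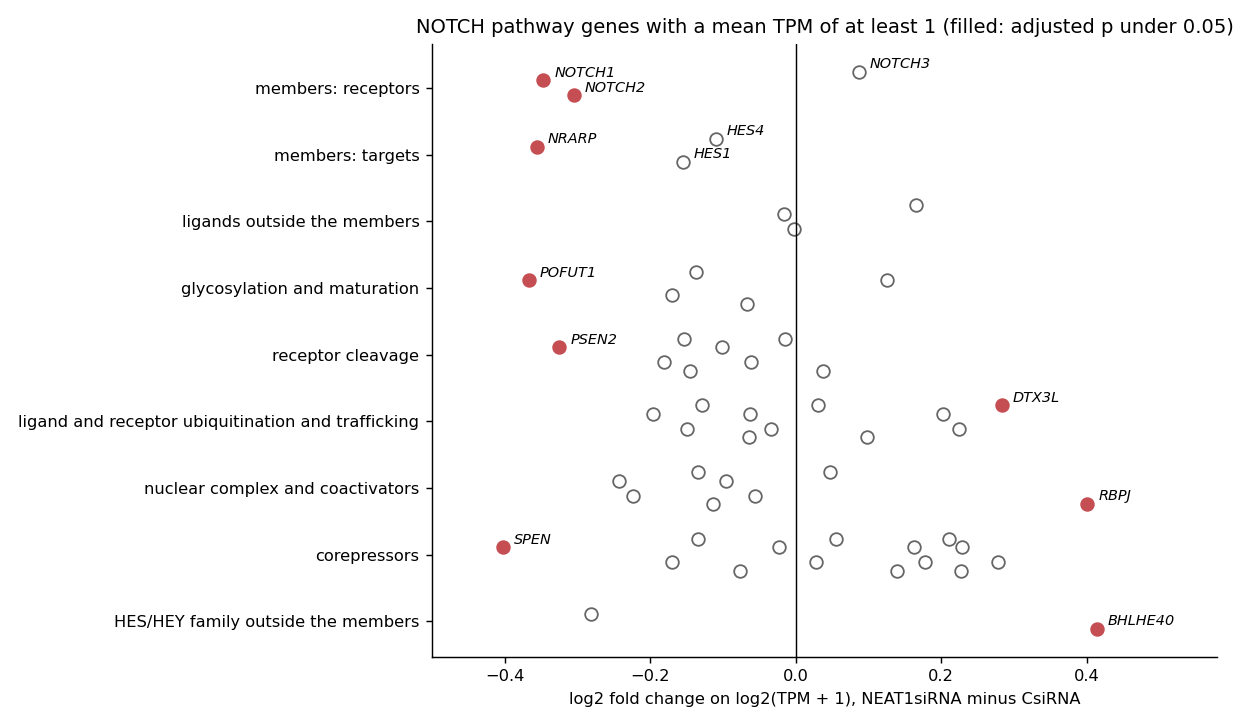
Log2 fold change on the log2(TPM + 1) scale of the NOTCH pathway genes with a mean of at least 1 TPM, by group; filled points have an adjusted p under 0.05 and vertical position within a row only separates points. The filled points are NOTCH1, NOTCH2, NRARP, POFUT1, PSEN2 and SPEN to the left of 0 and DTX3L, RBPJ and BHLHE40 to the right.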

How the data were processed

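The deposited tables hold TPM for 25545 genes in 6 libraries and the authors' comparison of the groups for 19392 genes. The submitters' notes and the study's methods name TruSeq Stranded mRNA libraries, STAR on GRCh38 and DESeq2. How reads were counted and scaled to TPM by the authors is not given in the sources used here. From the comparison table only the mean normalized count, deposited as a signal over the 6 libraries, was used. Its fold changes, p-values and adjusted p-values were not.

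TPM + 1 was taken to log2, genes averaging 1 TPM or more (10721) or 0.1 TPM or more (13727) were kept, and groups were compared with limma 3.58.1 (trended eBayes) in R 4.3.3, with Benjamini-Hochberg adjustment. TPM alone keep no depth, so whole reads were recovered by joining the tables on 18531 genes and fitted with limma's voom. The share of recovered values within 0.05 of a whole number was 99.8% for genes with a mean count under 5 and 98.5% up to 50, and lower above that, where reads are approximate. The limma fit was tested on simulated data. Ratios within a library were compared by a two-sided exact permutation test. Coordinates came from GENCODE for GRCh38, promoters from RefSeq (GRCh38.p14), and 1 symbol (TLE5) was found by a RefSeq synonym. Other work used Python 3.11.15, pandas 2.3.3 and scipy 1.17.1.

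The genes and lists were chosen with earlier results of these data known. Named are the 10 genes, NEAT1, listed pathway genes past the threshold, the most abundant gene of each list, NOTCH2NL and neighbours within 5 kb. DLL3, HES6, HES7, BHLHE41 and the genes listed at 0 were named after their values were seen. The result of 1 marker gene is not reported here. Alternatives were a pseudocount of 0.1, other filters, quantile normalization, median centring, leaving out 4 short RNAs, eBayes without trend, a replicate block, subtraction of the GC content and length trend (splines with 4 degrees of freedom), an adjusted p under 0.01 and each library left out. Those with the filter at 0.1 TPM other than the pseudocount, voom and left-out libraries, and the ratios, were chosen after seeing the data.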

Additional observations from a re-analysis of the deposited data

How the results depend on the processing

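The fall of NEAT1 kept its call under all 18 alternatives and ran from -1.60 to -1.24 (log2) with a library left out. Over the 10 genes, 3 calls became 0 at an adjusted p under 0.01, and ran from 0 (without CsiRNA replicate 1 or NEAT1siRNA replicate 3) to 3 with a library left out. With a mean TPM of at least 5 there was 1 call, as NOTCH2 kept its call (adjusted p = 0.0241) and NOTCH1 and NRARP were not tested. Over the pathway lists, 6 calls became 2 with no filter on TPM and 3 at an adjusted p under 0.01, and ran from 2 to 8 with a library left out. Quantile normalization gave 13 (10 higher, 3 lower), where 1082 of all genes rose and 1109 fell. Median centring gave 14 (11 higher, 3 lower), where 1158 rose and 954 fell. Without the 4 short RNAs there were 12 (9 higher, 3 lower), where 918 rose and 1174 fell. Removing the GC content and length trend gave 17 (11 higher, 6 lower), where 1678 rose and 1742 fell. By voom there were 15 (11 higher, 4 lower), where 1157 rose and 1325 fell. For genes of these 10 with a mean under 1 TPM, the 1 call (JAG1) became 2 with no filter, by voom, and with the filter at 0.1 TPM under GC content and length removal, median centring, quantile normalization or leaving out the 4 short RNAs, the second being HEY1. It was 1 with any library left out. Over all genes, 1498 calls (35.7% higher) became 505 with no filter (47.9% higher), 3420 with the GC trend removed (49.1% higher), 2482 by voom (46.6% higher) and 719 at an adjusted p under 0.01, and ran from 759 (without CsiRNA replicate 1) to 2083 (without NEAT1siRNA replicate 2) with a library left out. Median centring gave 54.8% higher and quantile normalization 49.4%. The value for NOTCH3 ran from -0.0082, reversed, without CsiRNA replicate 2 to 0.15 without NEAT1siRNA replicate 3. NOTCH1, NOTCH2 and NRARP lost their calls with no filter (adjusted p = 0.119, 0.141 and 0.0729), and NRARP with median centring (0.0509). The cause of these differences was not tested.

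With the replicate block, 1640 genes passed, with the same 3 calls among the 10 genes, and with the block and the GC content and length trend removed together, 3334 genes and 18 pathway genes did. Replicate numbers showed no clear pairing of the samples. Same-numbered deviations correlated at -0.03, 0.25 and -0.11, and not every sample correlated best with its own number. These deviations still carried the trend on GC content, which differed between libraries, so they cannot settle whether samples were paired.

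Depth limits HEYL (5 reads in all) and HEY1 (24 to 47 reads per library) most.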

Other observations

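Ratios of 2 genes within a library do not depend on how the libraries are scaled to each other, and 5 were taken after the values had been seen. They can still carry the trend on GC content, which differed between libraries, where the genes of a pair differ in GC content. JAG1 had 49.6% and JAG2 64.1%, for example, and no ratio was corrected for this. HEY1 stood at 0.0797 to 0.104 of HES1 in the CsiRNA libraries and at 0.137 to 0.169 in the NEAT1siRNA libraries, a mean difference of 0.81 on the log2 scale. HEY1 over NRARP went from 0.347 to 0.577 up to 0.995 to 1.11, a difference of 1.34, so that these target genes, unequal in TPM with CsiRNA, were about equal with NEAT1siRNA. JAG1 over NOTCH1 was 0.186 to 0.302 with CsiRNA and 0.540 to 0.830 with NEAT1siRNA, a difference of 1.56. JAG1 over JAG2 differed by 0.84 and NOTCH3 over NOTCH2 by 0.42. In each of the 5 pairs all 3 NEAT1siRNA ratios were above all 3 CsiRNA ratios. For HEY1 over HES1, HEY1 over NRARP and JAG1 over NOTCH1 this had to be so. Each of those genes was already separated between the groups, in opposite directions within the pair, so the ratio adds no support. The two-sided exact permutation test gave p = 0.1 for each, which is the smallest that 3 against 3 libraries allow, and 0.1 after adjustment over the 5.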
